A study of Papio hamadryas with 160 samples.

Results

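The microRNA (miRNA) profile of the baboon hippocampus was compared with that of the neocortex in the 6 animals of Group B (B1 to B6). Each hippocampal library was set against the mean of the dorsolateral prefrontal (dlPFC), motor (MC) and posterior parietal (PPC) cortex libraries of the same animal, which gave 6 pairs from 6 hippocampal and 17 neocortical libraries out of 76 libraries in the series. The neocortical libraries were 6 dlPFC, 5 MC and 6 PPC, since no MC value of B4 was used, and the B4 mean is over dlPFC and PPC. Small RNA was sequenced from tissue that was dissected fresh and frozen. The animals were controls of a pregnancy study, 5 males and 1 female, and the labels give neither age nor sex for each animal. The sources name the hippocampal tissue differently. GEO's labels say hippocampus, the column headings of the table say hippocampal dentate gyrus, and the study's methods describe the hippocampus with its substructures, so the share of dentate gyrus in each piece is unknown.

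miRNAs are short RNAs that pair with messenger RNAs through a seed near their 5′ end and lower the stability or translation of those messages. Each hairpin precursor can give a 5p and a 3p mature strand. The hippocampus is an older cortical structure of the medial temporal lobe that serves memory. It receives its main cortical input from the entorhinal cortex and borders the ventricle, whose lining carries ciliated ependymal cells and from which the choroid plexus hangs. Bulk tissue was sequenced, so fewer cells of a type and less of a miRNA per cell cannot be told apart in any result here.

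Values are RPM, reads scaled to the mapped miRNA reads of the library. A value for the neocortex of an animal is the mean over its regions on the log2(RPM + 1) scale, turned back into RPM. Fold changes are differences in log2(RPM + 1), hippocampus minus neocortex, which understate changes of low miRNAs, and are followed by their standard error (SE). Adjusted p-values are from limma, fitted with pairs by animal and adjusted by Benjamini and Hochberg's method across the 362 miRNAs. The hippocampal libraries held 1610655 to 2811816 reads and the neocortical libraries 1425625 to 2868122 reads, as recovered from the RPM values, and 3 reads, the limit that a count of 0 allows, came to 1.05 to 2.10 RPM.

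Hippocampus and neocortex shared most of their profile. In the hippocampus 22 miRNAs were higher and 30 were lower at an adjusted p under 0.05, which is 6.08% and 8.29% of the 362 tested (14.4% together), and the median change over all miRNAs was −0.02. The larger number of lower calls did not hold under other settings, with 33 higher and 33 lower after scaling by the median of ratios and 39 higher and 21 lower against PPC alone. Of the 52 called, 45 changed in the same direction in 6 of 6 animals. Only 5 were higher and 7 were lower by more than 1 on the log2 scale. Within an animal, the median absolute log2 difference over miRNAs was 0.244 to 0.343 for hippocampus against dlPFC and PPC (median 0.277) and 0.190 to 0.333 for dlPFC against PPC (median 0.238). It was larger for the hippocampus in 5 of 6 animals, by 0.030 ± 0.050 (SD, n = 6). With 6 pairs, this mean difference could not be told apart from 0 (two-sided exact sign-flip permutation test, p = 0.156).

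The difference that stood farthest out was miR-34c-5p, a miRNA known from multiciliated cells and, in mice, from work on hippocampal memory. Its lowest, median and highest values were 101, 159 and 479 RPM in hippocampus, against 9.56, 17.5 and 34.3 RPM in neocortex. Every hippocampal library was above every single neocortical library, of which the highest had 64.7 RPM. The change was 3.29 (SE 0.24, adjusted p = 6.33e-05), or 9.75-fold on this scale, and it was positive in 6 of 6 animals, with B2 lowest at 1.94 and B6 highest at 4.25. No other miRNA had all 6 hippocampal libraries above all 17 neocortical libraries (0.276% of 362), and none had them all below (0%).

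miR-34c-5p was also higher in hippocampus than in both other cortical regions of these animals. Medians were 159 RPM in hippocampus, 34.6 RPM in entorhinal cortex (EC) and 10.5 RPM in occipital cortex (OC). The change was 2.30 against EC (adjusted p = 0.000596, 6 pairs) and 3.62 against OC (adjusted p = 3.03e-05, 5 pairs). In Group A, whose animals differ, the hypothalamus had 450 to 6658 RPM and the amygdala 40.3 to 657 RPM. Those animals provided no hippocampus, so these values stand beside the hippocampal ones without a test. Of 5 miRNAs listed for ciliated cells, miR-34c-5p was the only one measured, so whether ependymal cells moved with it was not tested.

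**Figure D1:**
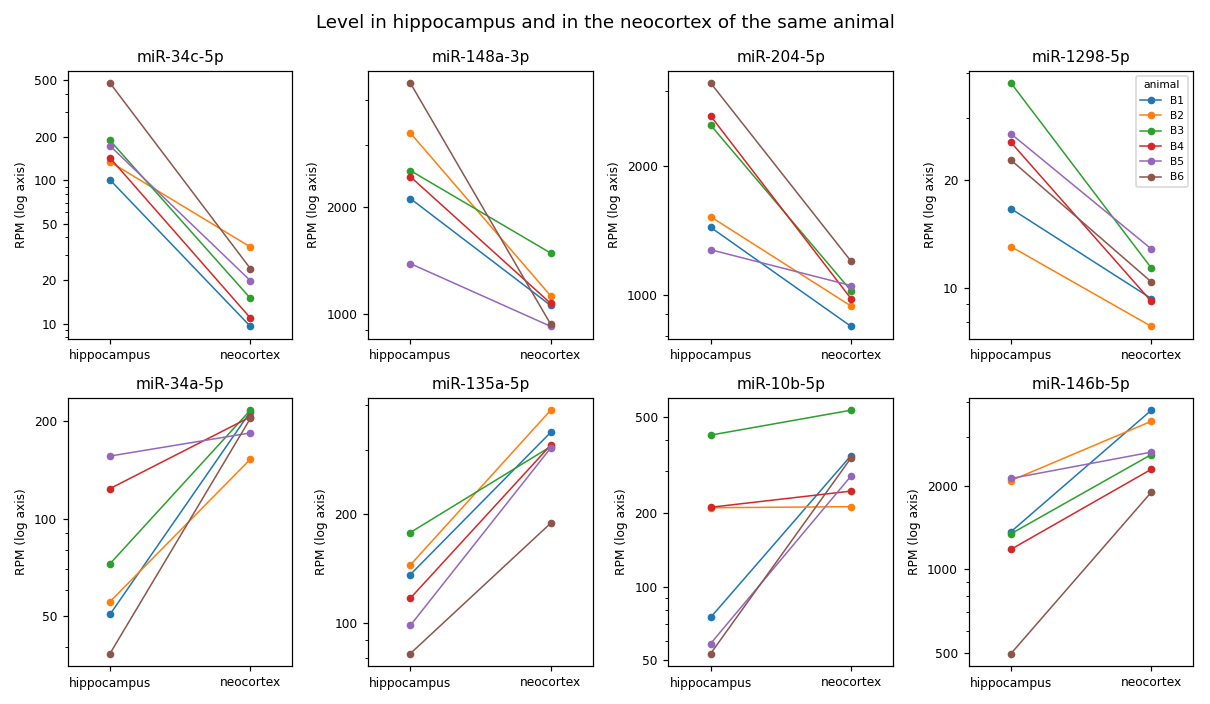
Level of 8 miRNAs (RPM, log axis) in the hippocampus and the neocortex of the same animal, 1 line per animal (B1 to B6). In the upper row every animal is higher in hippocampus, and miR-34c-5p lies farthest apart (101 to 479 RPM in hippocampus, 9.56 to 34.3 RPM in neocortex). In the lower row every animal is lower in hippocampus, and miR-10b-5p splits the animals into steep and flat lines. On the values drawn, miR-204-5p, miR-1298-5p and miR-135a-5p do not overlap either.

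Both strands of miR-148a, whose 3p strand is known to target the DNA methyltransferase DNMT1, were higher in hippocampus. The abundant miR-148a-3p had 1388, 2487 and 4471 RPM (lowest, median, highest) in hippocampus, against 924, 1065 and 1485 RPM in neocortex. Its change was 1.22 (SE 0.20, adjusted p = 0.00456, 6 of 6 animals higher). The rare miR-148a-5p had 9.60, 21.2 and 44.2 RPM in hippocampus, against 5.51, 8.01 and 10.9 RPM in neocortex. Its change was 1.28 (SE 0.23, adjusted p = 0.00739), on a median of 45 reads per hippocampal library. The 3p strand was also higher than in EC (1.07, adjusted p = 0.0161) and OC (1.39, adjusted p = 0.000261).

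A pair of miRNAs known from the choroid plexus, the epithelium that makes cerebrospinal fluid, rose as well. miR-204-5p, which lies in an intron of TRPM3, had 1275, 2010 and 3135 RPM in hippocampus, against 843, 1000.4 and 1198 RPM in neocortex. Every animal's hippocampus was above the highest neocortical mean. The change of miR-204-5p was 0.97 (SE 0.16, adjusted p = 0.00462). miR-1298-5p, which lies in an intron of the serotonin receptor gene HTR2C, had 13.0, 24.2 and 37.5 RPM in hippocampus, against 7.79, 9.85 and 12.8 RPM in neocortex. Its change was 1.09 (SE 0.13, adjusted p = 0.00129, 6 of 6 animals).

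The list of 4 choroid plexus miRNAs did not move as 1 unit. miR-1298-3p, the other strand of the same hairpin, had medians of 19.2 RPM in hippocampus and 13.8 RPM in neocortex (0.46, adjusted p = 0.106). miR-211-5p, the seed relative of miR-204-5p, had medians of 215 RPM in both (change 0.04, 95% interval −0.24 to 0.32). The summed level of the list was 1603 to 3310 RPM in hippocampus and 1115 to 1372 RPM in neocortex, higher in 6 of 6 animals. None of the 4 was at 0, and the part of attached choroid plexus in these results was not tested. Against EC, neither miR-204-5p (0.24, adjusted p = 0.391) nor miR-1298-5p (0.08, adjusted p = 0.829) passed the test, and the intervals of −0.21 to 0.69 and −0.51 to 0.68 leave room for changes in either direction. miR-211-5p was higher than in EC (0.82, adjusted p = 0.00359, 6 of 6 animals). Against OC all 4 were higher, with a median of 1.56, where 37.3% of all miRNAs were higher and their median was 0.22. After scaling by the median of ratios 3 of 4 were higher, beside 22.7% of all miRNAs. The member that lost the call under that scaling was miR-204-5p (0.46, adjusted p = 0.0635).

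Several miRNAs of the imprinted cluster that lies on chromosome 14q32 in humans, where many hairpins are expressed from the maternal allele, were higher in hippocampus. Of 54 measured members, 9 were higher and none was lower, beside 6.08% and 8.29% of all miRNAs, and 42 of 54 had a positive change. After scaling by the median of ratios 15 were higher and none was lower, beside 9.12% of all miRNAs in each direction. The median over the members was 0.18, against −0.02 over all miRNAs. The summed level was 27676 to 36071 RPM in hippocampus and 22750 to 31999 RPM in neocortex, higher in 5 of 6 animals, all but B5. The most abundant members did not pass the test. miR-127-3p changed by 0.25 (adjusted p = 0.134, 5 of 6 animals higher), with means of 18350 RPM in hippocampus and 15411 RPM in neocortex. miR-411-5p changed by 0.04 (adjusted p = 0.853) and miR-410-3p by −0.02 (adjusted p = 0.897).

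The 14q32 member with the largest change was miR-412-5p, with 16.0, 20.6 and 31.7 RPM in hippocampus, against 6.41, 10.6 and 12.2 RPM in neocortex. All 6 hippocampal values were above all 6 neocortical means, and its change was 1.08 (SE 0.13, adjusted p = 0.00129). miR-381-3p had 954, 1311 and 1636 RPM in hippocampus, against 645, 794 and 1038 RPM in neocortex (0.69, SE 0.10, adjusted p = 0.00456). miR-654-3p had 243, 555 and 773 RPM in hippocampus, against 215, 307 and 413 RPM in neocortex (0.70, adjusted p = 0.0139). In miR-380-3p the range was 124 to 340 RPM in hippocampus and 86.1 to 148 RPM in neocortex (0.72, adjusted p = 0.0152). Both miR-654-3p and miR-380-3p lost the call without B1.

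For miR-323b-3p, animal B3 stood apart in both tissues. It had 44.2 RPM in hippocampus and 32.1 RPM in neocortex, while the other animals had 6.66 to 12.1 RPM in hippocampus and 2.52 to 7.63 RPM in neocortex. Hippocampus was still higher in 6 of 6 animals, by 0.72 (SE 0.15, adjusted p = 0.0139). The call was lost without the animal block.

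The 14q32 members had other counts against the other cortical regions. Against EC none of 54 was higher and 22 were lower, with a median of −0.38 beside −0.17 over all miRNAs, where 9.12% of 362 were higher and 23.5% were lower in hippocampus. Against OC 33 were higher and none was lower, with a median of 0.71 beside 0.22 over all miRNAs, where 37.3% were higher and 12.2% were lower. After scaling by the median of ratios, 7 of 54 were lower and 0 higher against EC, beside 13.3% and 13.0% of all miRNAs. The count of lower calls is near that share and so is no result about these members. Their median under this scaling was −0.22 beside −0.01 over all miRNAs, about as far below it as without the scaling. Against OC 28 were higher and 1 was lower under that scaling, beside 82 and 76 of all 362 miRNAs. These comparisons share the hippocampal libraries.

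The remaining miRNAs with a large rise have roles outside the brain or lie in small clusters. miR-208b-3p, encoded in the cardiac myosin gene MYH7, had 8.89 to 21.9 RPM in hippocampus and 6.15 to 9.99 RPM in neocortex (0.71, adjusted p = 0.0302). It lost the call without B1, B2, B4 or B6, and its median depth was 31 reads in hippocampus. Its change was 0.09 against dlPFC alone (adjusted p = 0.833) and −0.43 against EC (adjusted p = 0.0717, 1 of 6 animals higher). Against OC the change of miR-208b-3p was 1.38 (adjusted p = 0.000261). miR-375, known from pancreatic islets and the pituitary, had 31.9 to 95.9 RPM in hippocampus and 18.6 to 46.8 RPM in neocortex (0.66, adjusted p = 0.0405). Its difference was near 0 in B1 and B4 (0.02 and 0.08) and above 1 in B2, B3 and B6, and it lost the call without any 1 of B2, B3 or B6. The level was also higher than in EC (1.13, adjusted p = 0.00681) but not than in OC (−0.20, adjusted p = 0.411). In the cluster of miR-221 and its seed relative, known to repress the cell cycle inhibitor p27, 2 of 3 members were called higher, beside 6.08% of all miRNAs. miR-221-3p had 2277, 2749 and 4379 RPM in hippocampus, against 1569, 1876 and 2286 RPM in neocortex (0.63, SE 0.17, adjusted p = 0.0353). miR-221-5p changed by 0.58 (adjusted p = 0.0213) and miR-222-3p by 0.54 (adjusted p = 0.0747). The call of miR-221-3p was lost without B1, B3, B4 or B6, and that of miR-221-5p without B1, B2 or B6. Against EC none of the 3 passed the test (median −0.15, beside −0.17 over all miRNAs). Against OC all 3 were higher (median 1.71), where 37.3% of all miRNAs were higher and their median was 0.22.

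**Figure D2:**
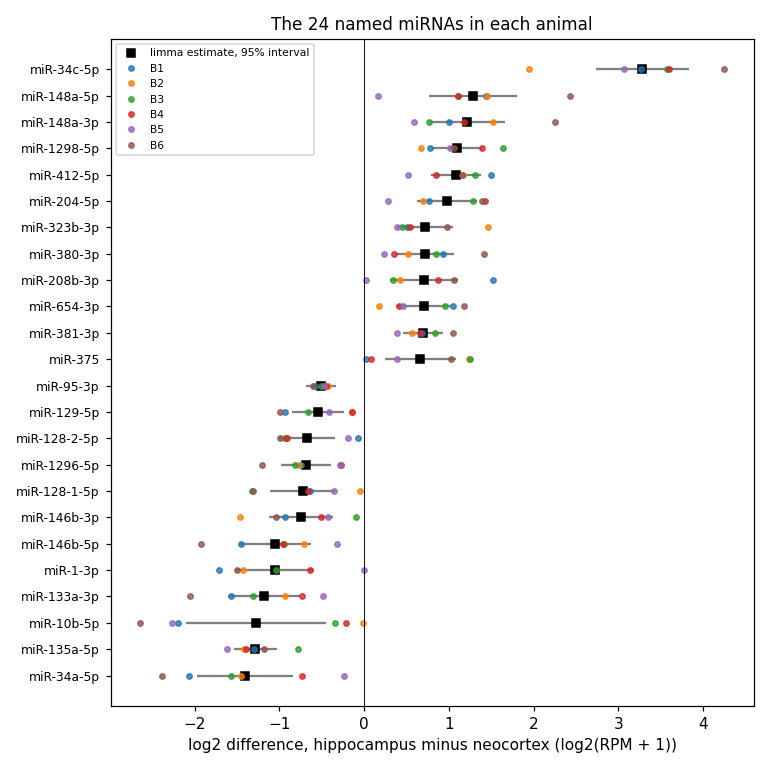
Difference in log2(RPM + 1), hippocampus minus neocortex, of the 12 miRNAs with the largest rise and the 12 with the largest fall. Squares and bars are the limma estimates with 95% intervals, and dots are the 6 animals; miR-34c-5p lies at 3.29, miR-95-3p has the tightest dots, and miR-10b-5p falls into a group of 3 animals near 0 and a group of 3 below −2.

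The miRNA with the largest fall, miR-34a-5p, shares its seed with miR-34c-5p and is known as a target of the tumour suppressor p53. It had 38.2, 63.8 and 156 RPM in hippocampus, against 153, 205 and 217 RPM in neocortex. Only the highest hippocampal value, in B5, reached the range of the neocortical means. The change was −1.41 (SE 0.25, adjusted p = 0.00739, 6 of 6 animals lower). The seed relatives thus changed in opposite directions in every animal.

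The fall of miR-34a-5p and of 2 muscle miRNAs, miR-133a-3p and miR-1-3p, differed by cortical region. The 4 measured members of the muscle list did not move together, with 2 lower and 1, miR-208b-3p, higher, beside 8.29% and 6.08% of all miRNAs. The remaining member, miR-499a-5p, did not pass the test (−0.24, adjusted p = 0.239). miR-133a-3p had 95.9, 164 and 254 RPM in hippocampus, against 313, 369 and 410 RPM in neocortex, with no overlap of the 6 and 6 values (−1.18, SE 0.19, adjusted p = 0.00456). miR-1-3p had 25.9, 62.4 and 169 RPM in hippocampus, against 40.8, 174 and 206 RPM in neocortex (−1.05, SE 0.21, adjusted p = 0.0112), and B5 had almost the same level in both tissues. The lowest neocortical value of miR-1-3p was that of B4, which had no MC value and also the lowest level in both other regions, 36.3 RPM in dlPFC and 45.8 RPM in PPC.

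By single region, the median of miR-34a-5p was 63.8 RPM in hippocampus, 71.7 in EC, 140 in dlPFC, 215 in PPC, 327 in MC and 355 in OC. That of miR-133a-3p was 164 RPM in hippocampus, 155 in EC, 263 in dlPFC, 413 in PPC, 547 in MC and 801 in OC. Against dlPFC alone the changes did not pass the test (miR-34a-5p −0.66, adjusted p = 0.295; miR-133a-3p −0.66, adjusted p = 0.155; miR-1-3p −0.45, adjusted p = 0.277). Against MC alone they were −2.28 (adjusted p = 0.0130), −1.76 (adjusted p = 0.0130) and −1.80 (adjusted p = 0.0187), in the same order of miRNAs. Hippocampus and EC were close, with changes of 0.10 for miR-34a-5p (95% interval −0.35 to 0.55) and 0.01 for miR-133a-3p (95% interval −0.31 to 0.34).

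miR-135a-5p, known in mice as a repressor of serotonin signalling genes, was low in hippocampus against all 3 neocortical regions. It had 82.4, 127 and 178 RPM in hippocampus, against 189, 309 and 387 RPM in neocortex. The 6 hippocampal values were below all 6 neocortical means, but the lowest single neocortical library had 149 RPM. The change was −1.28 (SE 0.11, adjusted p = 0.000172). It was −1.61 against dlPFC and −1.16 against PPC alone, passed the test against MC alone too (adjusted p = 0.0382), and was −1.52 against EC (adjusted p = 2.30e-05). Against OC the sign turned. The median was 127 RPM in hippocampus and 55.8 RPM in OC (1.14, adjusted p = 0.000788, higher in 5 of 5 animals).

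**Figure D3:**
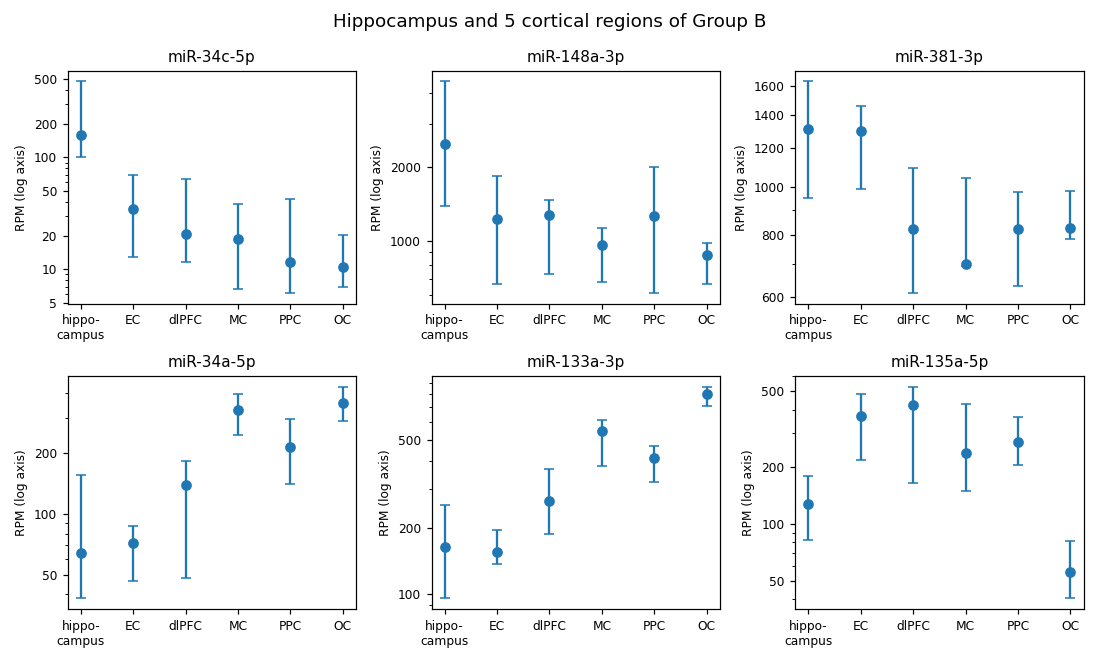
Median (point) and lowest to highest value (bars) of 6 miRNAs in hippocampus and 5 cortical regions of Group B (RPM, log axis; 6 libraries each, 5 for MC and OC). miR-34c-5p and miR-148a-3p have their highest median in hippocampus, miR-381-3p is alike in hippocampus and EC, miR-34a-5p and miR-133a-3p climb to 355 and 801 RPM in OC, and miR-135a-5p has its lowest median, 55.8 RPM, in OC.

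miR-146b, a relative of the inflammation-linked miR-146a, was lower on both strands. miR-146b-5p had 498, 1355 and 2124 RPM in hippocampus, against 1897, 2617 and 3741 RPM in neocortex (−1.05, SE 0.19, adjusted p = 0.00739). miR-146b-3p had 3.72 to 8.94 RPM in hippocampus and 8.74 to 13.8 RPM in neocortex (−0.75, adjusted p = 0.0205) and lost the call without B1 or B6. miR-146b-5p was also lower than in EC (−1.42, adjusted p = 0.00311) and OC (−1.07, adjusted p = 0.00839). In the list of leukocyte and microglial miRNAs, which holds miR-146a-5p (−0.20, adjusted p = 0.205), 0 of 6 members passed the test.

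Among 17 neuronal miRNAs, 6 were lower and 1 was higher, beside 8.29% and 6.08% of all miRNAs, with a median of −0.15 against −0.02 over all. The 6 lower names were all strands of miR-128, miR-129 or miR-124, so they do not stand for 6 separate miRNAs. miR-128, a miRNA of mature neurons that is made from a pair of hairpins, was lower on all 3 strands measured. Its guide strand miR-128-3p had 9109 to 13407 RPM in hippocampus and 11309 to 16804 RPM in neocortex (−0.33, adjusted p = 0.0302). The passenger strands changed by −0.72 (miR-128-1-5p, adjusted p = 0.0216) and −0.67 (miR-128-2-5p, adjusted p = 0.0182). miR-128-3p lost the call when any animal but B2 was left out, miR-128-1-5p without B1, B3 or B6, and miR-128-2-5p without B2, B3 or B6.

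Other neuronal miRNAs moved less evenly. miR-129-5p had 298, 481 and 621 RPM in hippocampus, against 591, 685 and 708 RPM in neocortex (−0.55, adjusted p = 0.0268), and lost the call without B1, B3 or B6. miR-129-1-3p fell by 1.06 (adjusted p = 0.0353) and miR-124-5p by 0.47 (adjusted p = 0.0397). miR-218-5p rose by 0.60 (adjusted p = 0.0302, 5 of 6 animals). The most abundant members, miR-9-5p (−0.01, adjusted p = 0.944) and miR-124-3p (−0.21, adjusted p = 0.172), did not pass the test. The summed level of the list was 46904 to 60666 RPM in hippocampus and 52429 to 66540 RPM in neocortex.

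miR-95-3p had a small fall that was the same in every animal. It had 115, 155 and 179 RPM in hippocampus, against 175, 219 and 245 RPM in neocortex. Its 6 differences lay between −0.60 and −0.42, with a change of −0.51 (SE 0.08, adjusted p = 0.00456). miR-1296-5p had 113 to 246 RPM in hippocampus and 244 to 299 RPM in neocortex (−0.68, SE 0.13, adjusted p = 0.0102).

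miR-10b-5p, encoded in the HOXD cluster, divided the animals. The differences were −2.20, −2.27 and −2.65 in B1, B5 and B6, and −0.01, −0.34 and −0.22 in B2, B3 and B4. In hippocampus B1, B5 and B6 had 74.7, 58.3 and 53.1 RPM, and B2, B3 and B4 had 211, 420 and 212 RPM. In neocortex all 6 animals had 213 to 531 RPM. miR-10a-5p, the other measured member of the HOX list, did not pass the test (−0.23, adjusted p = 0.518, 3 of 6 animals higher). The fitted change of miR-10b-5p was −1.28 (SE 0.37, adjusted p = 0.0453). Its call was lost with a pseudocount of 0.1 RPM, against dlPFC and PPC without MC, and without B1, B5 or B6.

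The summed levels of the vessel and red cell lists were low in the hippocampus of the same 3 animals. miR-143-3p of smooth muscle makes up most of the vessel sum, and its differences were −0.73, −1.20 and −0.92 in B1, B5 and B6, and 0.10, 0.14 and −0.07 in B2, B3 and B4. The summed level of 5 endothelial and mural miRNAs in B1, B5 and B6 was 16349, 17731 and 18418 RPM in hippocampus, against 26395, 33282 and 32651 RPM in neocortex. In B2, B3 and B4 it was 25218, 30302 and 33482 RPM in hippocampus, against 25319, 29403 and 35917 RPM in neocortex. The sum of 4 erythroid miRNAs was 1110, 662 and 846 RPM in hippocampus of B1, B5 and B6, against 1632, 1216 and 2133 RPM in neocortex. In B2, B3 and B4 it was 1740, 1705 and 1550 RPM in hippocampus, against 1535, 1565 and 1417 RPM in neocortex. No member of either list was at 0, and the part of vessels and blood in the miR-10b-5p result was not tested.

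Of the endothelial and mural list, 3 of 5 members were lower and none was higher, beside 8.29% and 6.08% of all miRNAs, with a median of −0.45 against −0.02 over all. miR-126-3p, the endothelial miRNA from EGFL7, had 1085 to 1508 RPM in hippocampus and 1590 to 2056 RPM in neocortex (−0.45, adjusted p = 0.0152). Its 6 hippocampal values were below all 6 neocortical means, but the lowest single neocortical library had 1374 RPM. The other strand, miR-126-5p, changed by −0.37 (adjusted p = 0.0338). miR-126-3p lost the call without B1 or B6 and miR-126-5p without B1, B3, B4 or B6. Both strands of miR-126 were lower in 6 of 6 animals, B2, B3 and B4 included, with differences of −0.72 to −0.24 and −0.62 to −0.20. miR-143-3p had a median of 15225 RPM in hippocampus and 21697 RPM in neocortex (−0.45, adjusted p = 0.152). None of the 4 erythroid miRNAs passed the test (−0.46 to −0.31).

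**Figure D4:**
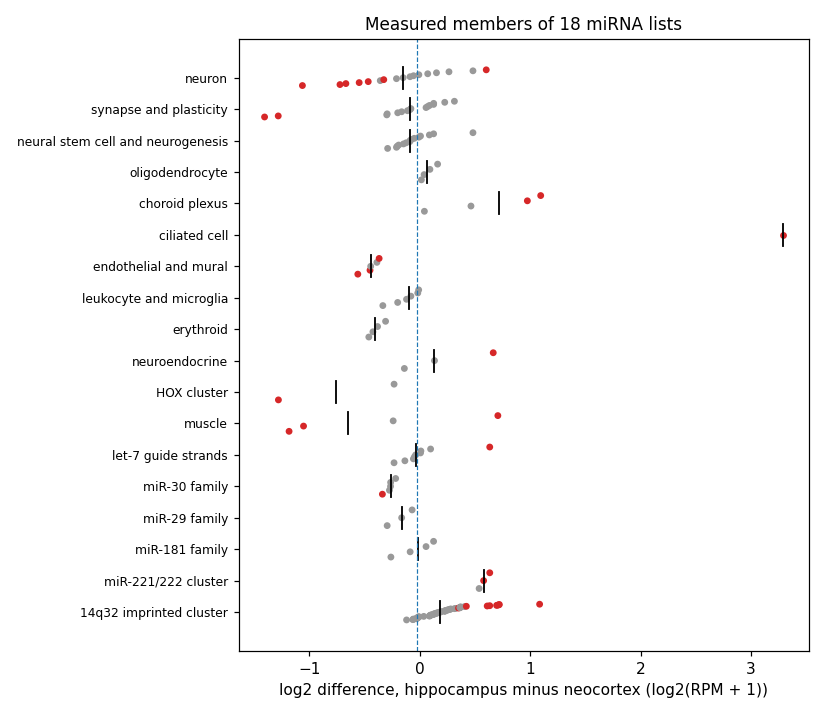
Change in log2(RPM + 1), hippocampus minus neocortex, of the measured members of 18 lists. Red dots passed the test, grey dots did not, black ticks are list medians and the dashed line is the median over all 362 miRNAs (−0.02). The 14q32 list has 9 red dots, all to the right, and the neuronal list has 6 red dots to the left and 1 to the right.

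Few members of the other families passed the test. Of 9 let-7 guide strands, let-7i-5p alone passed the test, with 2324, 2608 and 3809 RPM in hippocampus, against 1698, 1737 and 1861 RPM in neocortex (0.63, SE 0.12, adjusted p = 0.00739). Against OC the sign of let-7i-5p turned (−0.75, adjusted p = 0.00190, higher in 0 of 5 animals). The summed level of the 5 miR-30 members was 26593 to 31905 RPM in hippocampus and 32696 to 38474 RPM in neocortex. The 6 hippocampal sums and the 6 sums of neocortical means did not overlap, and hippocampus was lower in 6 of 6 animals. All 5 had negative changes, with a median of −0.27, and miR-30e-5p passed (−0.34, adjusted p = 0.0231), but it lost the call without B1, B3, B4 or B6. None of 3 miR-29 and none of 4 miR-181 members passed. miR-181a-5p, among the most abundant miRNAs measured, had a median of 86647 RPM in hippocampus and 85515 RPM in neocortex (0.06, adjusted p = 0.746). Of 16 miRNAs of synapse and plasticity 2 were lower, miR-34a-5p and miR-135a-5p, a share near the 8.29% over all miRNAs. Of 15 miRNAs of neural stem cells and neurogenesis none passed.

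The 4 oligodendrocyte miRNAs did not separate hippocampus from neocortex, with changes of 0.01 to 0.16 and summed levels of 8162 to 10305 RPM in hippocampus and 6790 to 10064 RPM in neocortex. Against EC all 4 were higher in hippocampus, by 0.80 to 1.01, where the median over all miRNAs was −0.17 and 9.12% of them were higher. Against OC all 4 were higher as well, where 37.3% of all miRNAs were higher, with a median of 0.45 beside 0.22 over all miRNAs. After scaling by the median of ratios only 1 of 4 was higher, beside 22.7% of all miRNAs. These markers move with both comparisons, and their part in them was not tested.

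Of the 22 miRNAs higher than in neocortex, 4 were also higher than in EC, where 9.12% of all miRNAs were higher, and 18 also higher than in OC, where 37.3% were. Of the 30 lower ones, 20 were also lower than in EC, where 23.5% of all miRNAs were lower, and 16 also lower than in OC, where 12.2% were. These counts share the hippocampal libraries with the main comparison, so they describe the same tissue pieces again. The names miR-199a-3p and miR-199b-3p, and likewise miR-365a-3p and miR-365b-3p, have the same values in all 23 libraries and cannot be told apart, so the 30 lower names include 2 pairs of this kind.

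For the balance between the strands of a hairpin, the log2 ratio of the 5p to the 3p strand was tested for 91 hairpins, and 0 passed (0%; lowest adjusted p = 0.427, limma), while 8 had an unadjusted p under 0.05. The hairpin of miR-148a, with both strands higher, was among those that did not pass.

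Some calls were lost without the pairing or against a single cortical region. Without the animal block, miR-323b-3p, miR-380-3p, miR-654-3p, miR-375, miR-10b-5p, miR-1-3p, miR-128-1-5p, miR-128-3p, miR-126-5p, miR-30e-5p and miR-221-5p were no longer called. Of the 24 miRNAs with the largest changes, against MC alone, on 5 pairs, miR-148a-5p, miR-323b-3p, miR-208b-3p, miR-654-3p, miR-375, miR-146b-3p and both miR-128 passenger strands lost the call. Against dlPFC alone, miR-380-3p, miR-208b-3p, miR-10b-5p, miR-1296-5p and miR-129-5p lost it, beside miR-34a-5p, miR-133a-3p and miR-1-3p. Against PPC alone, miR-375 and miR-10b-5p lost it. A lost call did not always go with a smaller change. The change of miR-148a-5p was 1.47 against MC alone and 1.28 in the main fit. By contrast, that of miR-208b-3p was 0.09 against dlPFC alone and 0.71 in the main fit. Among the other named calls, miR-221-3p, miR-221-5p and miR-30e-5p lost the call against dlPFC alone and against MC alone. miR-126-5p lost it against dlPFC alone and PPC alone, and miR-126-3p against PPC alone. miR-128-3p lost it against MC alone and PPC alone, and under quantile normalization.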

How the data were processed

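Small RNA libraries were made by the authors with the TruSeq small RNA kit and sequenced on a GAIIx. Per the study's methods, reads were aligned with bowtie in mirDeep2 (version not given in the sources used here) to human miRBase v21 with 0 mismatches, so baboon miRNAs that differ from the human sequence can be undercounted. Each deposited RPM value is relative to all miRNA reads mapped in its library after the runs were combined, and 362 miRNAs were kept by a read minimum in brain. A deposited count column holds the total read count per miRNA over all libraries. It was used only to check the read totals recovered from the steps of low RPM values, which serve here as depth and in no test. In the table, 3 library columns without numbers were not used.

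limma 3.58.1 (R 4.3.3) was run on log2(RPM + 1) with the animal as a block, threshold 0.05. The labels name the animal of each library. As a check of the pairs, hippocampal and neocortical deviations from the group means correlated within animals at 0.370 to 0.665 over 230 miRNAs above 50 RPM. The code was tested on simulated data. Named miRNAs were the 12 largest changes in each direction among those called, the same way in 6 of 6 animals and with a mean of at least 10 RPM, plus up to 3 abundant members of each of 18 lists. let-7i-5p, miR-129-1-3p, miR-124-5p, miR-218-5p and the names with identical values are outside this rule and were chosen after their values were seen. Members and lists were chosen with earlier results of these data known. No sequences are shown, as none were used here.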

Additional observations from a re-analysis of the deposited data

Results flagged for a closer look

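Among the 24 named miRNAs, the 6 differences, the 6 hippocampal and the 6 neocortical values were each searched for a single animal far from the others, 72 groups in all, of which chance alone flags about 1 in 20. In hippocampus miR-323b-3p stood at 44.2 RPM in B3, against 6.66 to 12.1 RPM in the other 5 animals. In neocortex miR-135a-5p was low in B6, at 189 RPM against 305 to 387 RPM, and miR-1-3p was low in B4, at 40.8 RPM against 160 to 206 RPM. B4 has no MC value, and it was also the lowest animal in dlPFC (36.3 RPM) and in PPC (45.8 RPM). No difference between hippocampus and neocortex was set apart in this way.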

How the results depend on the processing

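The 52 calls of hippocampus against neocortex became 30 with no replicate block, that is without the animal pairs, 28 with dlPFC alone, 24 with MC alone and 94 with OC added, and 21 to 60 when 1 animal was left out (21 without B1, 29 without B3, 26 without B6). The split of 22 higher and 30 lower became 33 and 33 with median of ratios, 32 and 33 with quantile normalization, 39 and 21 with PPC alone and 36 and 24 without B5. The other settings gave 51 to 66 calls (both pseudocounts, the 10 RPM minimum, quantile normalization, median of ratios, limma's trend, PPC alone, dlPFC and PPC). None of the 52 changed sign under any of these settings. Of the 24 with the largest changes, miR-34c-5p, miR-148a-3p, miR-1298-5p, miR-412-5p, miR-204-5p, miR-381-3p, miR-135a-5p, miR-146b-5p and miR-95-3p held their call under all 18 alternatives. Over the 30 named and called miRNAs, the call was kept in 450 of 540 refits.

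Against EC, 118 calls became 73 to 149 with 1 animal left out, and against OC 179 became 114 to 171. Without the block they were 80 and 142. Median of ratios moved the split from 33 higher and 85 lower to 47 and 48 against EC, and from 135 higher and 44 lower to 82 and 76 against OC. The arm ratio gave 2 calls with a pseudocount of 10 RPM and 0 to 1 with 1 animal left out. The count tests planned as alternatives, edgeR and DESeq2, are not reported, since the deposited values are not counts and were not accepted as whole reads. With 6 animals and a median of 16.5 reads in hippocampus behind the rarest named miRNA, small changes of low miRNAs were not detectable.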
